A study of Mus musculus with 8 samples.

Results

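The genes that build, load and regulate classical MHC class I molecules were followed across plasma cells that lacked Blimp1 or Xbp1. The 9 genes, given by name, were the heavy chains H2-K1 and H2-D1, the light chain B2m, the peptide transporter subunits Tap1 and Tap2, the peptide loading factors Tapbp and Tapbpl, the peptide trimming enzyme Erap1 and the transcriptional regulator Nlrc5. All 9 were found among the 27179 genes of the count table, and all 9 were among the 15073 genes that passed the filter on low counts. In the RefSeq annotation of GRCm38.p6, 5 of the 9 lie on chromosome 17: Tapbp at 33919478 to 33929290, H2-K1 at 33996012 to 34000619, Tap1 at 34187556 to 34197225, Tap2 at 34204479 to 34216321 and H2-D1 at 35263094 to 35267497. B2m lies on chromosome 2 at 122147687 to 122153082, Tapbpl on chromosome 6 at 125223927 to 125231860, Nlrc5 on chromosome 8 at 94434335 to 94527272 and Erap1 on chromosome 13 at 74639573 to 74693205.

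MHC class I molecules display peptides from proteins made inside the cell to CD8 T cells. The proteasome cuts proteins to peptides, the TAP transporter carries these into the endoplasmic reticulum, ERAP1 trims them, and tapasin holds the pair of heavy chain and beta-2 microglobulin at the transporter until a peptide fits. NLRC5 drives transcription of many of these genes together by joining a complex on their promoters. Plasma cells make antibody on an enlarged endoplasmic reticulum, so class I chains are folded there beside a much larger flow of immunoglobulin.

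RNA came from bone marrow plasma cells of C57BL/6 mice that were sorted on a Blimp1-GFP reporter and on CD138, a plasma cell surface proteoglycan, in all groups. The groups were Blimp1KO (genotype Blimp1-/-, replicates 1 and 2) and WT (wild type, replicates 1 and 2) in batch 1, and Xbp1KO (genotype Xbp1-/-, replicates 1 and 2) and WT (replicates 3 and 4) in batch 2. Blimp1 and XBP1 are transcription factors of the plasma cell program, and the design asks what each maintains. The names under which the libraries were deposited carry CreER, an inducible form of the Cre recombinase, in Xbp1KO and in WT of batch 2 alike. They add fl in Xbp1KO and pos in WT of batch 2. In batch 1 the names carry plus and minus in 1 WT library and pos and neg in the other. They carry fl and minus in 1 Blimp1KO library and neg in the other. What fl, pos, neg, plus and minus stand for is not spelled out. The age of the mice, the promoter that drives the recombinase and any inducing agent are not given in the sources used here. The series text calls the replicates biological.

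Total counts ranged from 44012152 to 145411827 per library, and each of the 9 genes had at least 598 counts in every library. Immunoglobulin genes took 55.4% to 58.4% of counts in Blimp1KO and 75.6% to 75.7% in WT of batch 1, and 25.2% to 30.0% in Xbp1KO and 64.8% to 69.7% in WT of batch 2. All levels were therefore scaled by TMM, a factor from the bulk of genes, and a change is relative to those genes. The targeted genes were still counted: Prdm1, which encodes Blimp1, had 243 and 176 CPM (counts per 1e6 of the scaled library size) in Blimp1KO, against 301 and 306 CPM in WT of batch 1; Xbp1 likewise had 1302 and 1105 CPM in Xbp1KO and 2129 and 2203 CPM in WT of batch 2. Neither difference passed edgeR's quasi-likelihood test (adjusted p = 0.401 for Prdm1 and 0.0939 for Xbp1), and a count over a whole gene does not show whether exons were deleted. Replicate numbers 1 and 2 of batch 1 were interchanged between the count table and the per-library FPKM files in both genotypes. There the FPKM of a library ranked with its own counts at a Spearman rho of 0.969 to 0.988 and with those of the other number at 0.9998 to 0.9999, across 13720 genes. Groups are not affected, and libraries are numbered here as in the count table.

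The sequences upstream of the heavy chain genes, of B2m and of Tapbp are shown because the estimates of the heavy chains and of B2m, which share a promoter module, went apart in Xbp1KO, and because Tapbp changed most there. They are the 250 bases before a start of transcription listed in RefSeq on GRCm38.p6, written 5′ to 3′ on the strand of the gene; a promoter was matched for 6 of the 9 genes. Capitals mark TGACG, the core of the cyclic AMP response element and of the X2 box of class I promoters; CCAAT or its reverse complement ATTGG, the Y box bound by NF-Y; the kappa B site of enhancer A, which is the run of 10 capitals in H2-K1 and H2-D1; and the interferon response element (GAAA repeated after any 2 bases), which is the run of 10 capitals in B2m. H2-K1 is at chr17:34000348-34000597 on the minus strand (within the annotated span of the gene, which reaches further 5′ than the start used here), H2-D1 at chr17:35262844-35263093 on the plus strand, B2m at chr2:122147437-122147686 on the plus strand and Tapbp at chr17:33919228-33919477 on the plus strand.
H2-K1: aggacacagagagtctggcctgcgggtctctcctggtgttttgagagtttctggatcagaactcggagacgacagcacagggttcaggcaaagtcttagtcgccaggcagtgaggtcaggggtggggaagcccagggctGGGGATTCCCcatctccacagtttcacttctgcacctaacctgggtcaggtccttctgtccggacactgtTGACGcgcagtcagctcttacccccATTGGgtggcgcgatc
H2-D1: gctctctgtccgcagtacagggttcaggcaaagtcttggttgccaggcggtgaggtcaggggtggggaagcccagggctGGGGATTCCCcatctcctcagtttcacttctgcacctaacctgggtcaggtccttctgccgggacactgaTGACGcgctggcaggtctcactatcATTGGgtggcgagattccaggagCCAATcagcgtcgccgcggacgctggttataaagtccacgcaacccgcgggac
B2m: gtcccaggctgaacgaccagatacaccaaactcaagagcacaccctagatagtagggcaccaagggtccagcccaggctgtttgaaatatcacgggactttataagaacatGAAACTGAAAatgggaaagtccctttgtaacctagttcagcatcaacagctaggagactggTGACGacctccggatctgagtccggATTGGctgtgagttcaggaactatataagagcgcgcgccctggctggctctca
Tapbp: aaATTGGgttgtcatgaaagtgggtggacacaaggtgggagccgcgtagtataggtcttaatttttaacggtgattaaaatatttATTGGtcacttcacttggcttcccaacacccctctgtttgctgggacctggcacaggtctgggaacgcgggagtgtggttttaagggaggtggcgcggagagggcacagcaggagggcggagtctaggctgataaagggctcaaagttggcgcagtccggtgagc

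TGACG followed by ATTGG with 20 bases between them occurred in H2-K1, H2-D1 and B2m, and in 30 of 32851 mouse promoter windows (0.0913%); this spacing was chosen after the matches were seen. The kappa B site occurred in H2-K1 and H2-D1 and in 0.0852% of all windows. An exact match to the letters given above for the interferon response element was found in B2m alone among the 6 genes, and in 2.98% of all windows. Sites that differ from these letters were not searched for. The count therefore does not show that H2-K1, H2-D1 or the other promoters lack such an element. On either strand, CCAAT was found in 5 of the 6 (33.8% of all windows) and TGACG in 4 of the 6 (17.8%), while Tapbp held ATTGG without TGACG. The letters AGNGAAAG, the core bound by Blimp1, were in 0 of the 6 windows and in 7.3% of all. TGACGTG, the core of an element bound by XBP1, was in 0 of the 6 and in 1.65% of all. The endoplasmic reticulum stress element was in 0 of the 6 and in 0.113% of all. Other letters that XBP1 may bind were not searched for. These counts therefore do not show that the 6 promoters lack a site for XBP1. TGACG lies within TGACGTG, and a match describes letters in a window, not binding.

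In Xbp1KO, members of the same pathway moved in opposite directions. The heavy chain gene H2-D1 and the trimming enzyme gene Erap1 rose, while Tapbp, which encodes tapasin, and B2m, which encodes the light chain of every class I molecule, fell. Of the 9 genes, 4 passed edgeR's quasi-likelihood test at an adjusted p below 0.05, 2 higher and 2 lower, where 7.7% of all tested genes passed (2.63% higher and 5.06% lower). The median log2 fold change of the 9 was -0.06, against 0.08 over all genes tested. Libraries of the groups did not overlap for 8 of the 9, 4 higher and 4 lower in Xbp1KO, where 57.6% of all tested genes did not overlap (31.8% higher and 25.8% lower).

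The size of these changes was steadier than their calls. With any 1 of the 4 libraries of batch 2 left out, 0 of the 9 genes passed, and with WT replicate 1 or 2 of batch 1 left out, which acts only through the shared spread, filter and scaling, Tapbp alone passed. Over all 8 such fits the log2 fold change of Tapbp stayed between -1.78 and -1.62, of B2m between -1.41 and -1.27, of H2-D1 between 1.00 and 1.16 and of Erap1 between 0.68 and 1.09. In bulk RNA, fewer cells of a type and less RNA per cell cannot be told apart.

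**Figure D1:**
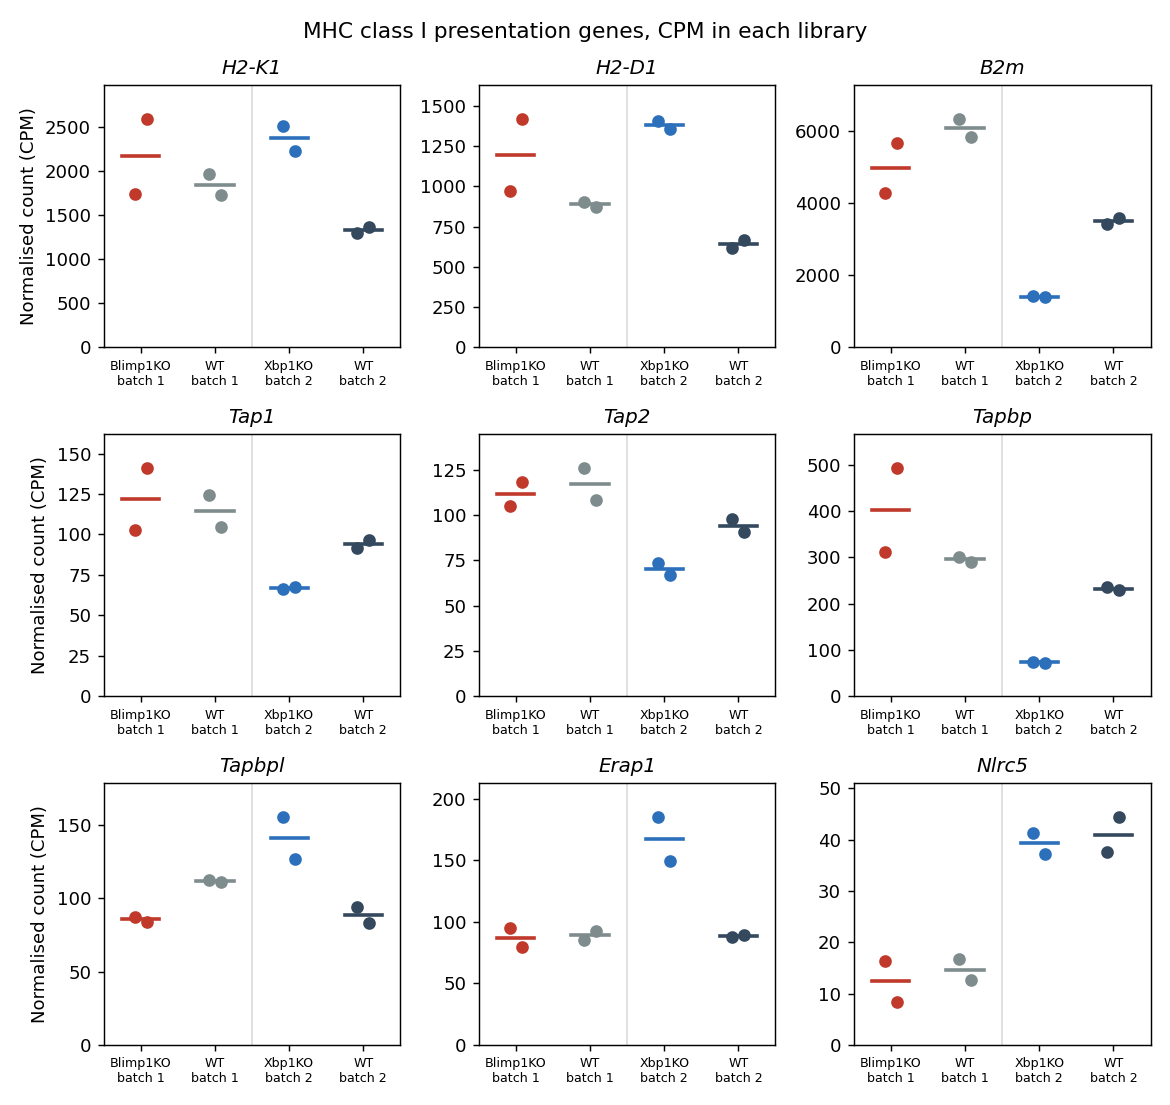
CPM of the 9 genes (y axes, linear from 0) in each library (points, n = 2 per group) with group means (lines); the x axis gives the group and batch. Tapbp and B2m lie lowest in Xbp1KO, at 71.1 and 74.2 CPM and at 1383 and 1421 CPM, while H2-D1 and Erap1 in Xbp1KO lie above WT of batch 2.

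Among the heavy chains, which form the peptide groove, H2-D1 had 1409 and 1357 CPM in Xbp1KO and 619 and 666 CPM in WT of batch 2. It rose by 1.11 ± 0.26 on the log2 scale (SE; adjusted p = 0.0483, edgeR), a fitted ratio of 2.15. H2-K1 had 2516.5 and 2228 CPM in Xbp1KO and 1299 and 1366 CPM in WT of batch 2. Both H2-K1 libraries of Xbp1KO lay above both WT libraries, but the log2 fold change of 0.83 ± 0.28 did not pass the test (adjusted p = 0.132, edgeR; 95% interval 0.16 to 1.50). The heavy chain genes resemble each other and the nonclassical genes: of the 50-base words of their transcripts, 13.9% of H2-D1 and 6.87% of H2-K1 also occur in transcripts of other genes, so counts between them are uncertain. Summed as 1 gene, H2-K1 and H2-D1 had a log2 fold change of 0.93 ± 0.29 (adjusted p = 0.11, edgeR).

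B2m, whose protein pairs with every class I heavy chain, went the other way. It had 1421 and 1383 CPM in Xbp1KO and 3426 and 3575 CPM in WT of batch 2, and fell by 1.32 ± 0.28 on the log2 scale (adjusted p = 0.038, edgeR), a fitted ratio of 0.401. None of its 50-base words occurs in a transcript of another gene. Patl2, which overlaps it in the annotation, averaged 1.63 counts per library.

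Tapbp showed the largest change among the 9. It had 74.2 and 71.1 CPM in Xbp1KO and 235 and 229 CPM in WT of batch 2, and fell by 1.68 ± 0.25 on the log2 scale (adjusted p = 0.012, edgeR), a fitted ratio of 0.313. Replicates differed by a few CPM in either group, and the groups lay far apart. Tapbpl, which encodes the tapasin-related protein TAPBPR, a peptide editor that works outside the loading complex, had 156 and 127 CPM in Xbp1KO and 94.0 and 82.8 CPM in WT of batch 2. Its log2 fold change of 0.68 ± 0.17 did not pass the test (adjusted p = 0.0629, edgeR), with a 95% interval of 0.27 to 1.08. Of the 50-base words of their transcripts, 3.5% of Tapbp and 3.52% of Tapbpl also occur in transcripts of other genes. The noncoding genes Gm19412 and E130112N10Rik, which overlap Tapbp and Tapbpl, averaged 21.1 and 69.4 counts per library. The strand setting of the counting is not given in the sources used here.

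The transporter subunits had estimates below 0 in Xbp1KO, smaller in size than those of Tapbp and B2m. Tap1 had 66.0 and 67.5 CPM in Xbp1KO and 91.7 and 96.5 CPM in WT of batch 2 (log2 fold change -0.50 ± 0.20, adjusted p = 0.194, edgeR). Tap2 had 73.7 and 67.1 CPM in Xbp1KO and 97.8 and 90.7 CPM in WT of batch 2 (-0.42 ± 0.17, adjusted p = 0.184, edgeR). All Xbp1KO libraries lay under all WT libraries of batch 2 for both genes, and both 95% intervals lay below 0 (-0.97 to -0.02 for Tap1 and -0.81 to -0.03 for Tap2), but neither gene passed after adjustment over all genes.

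Erap1, the aminopeptidase that shortens peptides in the endoplasmic reticulum, had 185.5 and 150 CPM in Xbp1KO and 87.9 and 89.3 CPM in WT of batch 2. It rose by 0.92 ± 0.18 on the log2 scale (adjusted p = 0.0298, edgeR), a fitted ratio of 1.89. Cast, a neighbour that overlaps it by 840 bases and could share reads there, had a log2 fold change of -0.10 ± 0.28 (adjusted p = 0.868, edgeR).

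Nlrc5, the regulator, which overlaps 2 long noncoding RNA genes and a microRNA gene in the annotation, had 41.4 and 37.2 CPM in Xbp1KO and 37.5 and 44.5 CPM in WT of batch 2. These Nlrc5 libraries overlapped, and its log2 fold change was -0.06 ± 0.31 (adjusted p = 0.933, edgeR; 95% interval -0.79 to 0.66).

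The direction of these changes is relative to other genes. When library totals with immunoglobulin counts were used in place of TMM, an alternative chosen after seeing the data, the median of all genes in Xbp1KO moved to 1.24, against 0.08 with TMM. On that scale B2m stood at -0.17 (adjusted p = 0.526) and Tapbp at -0.52 (adjusted p = 0.0793, edgeR), still the 2 lowest of the 9, while H2-D1 stood at 2.26 and Erap1 at 2.06. Tap1, Tap2 and Nlrc5 changed sign there, to 0.66, 0.74 and 1.08.

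**Figure D2:**
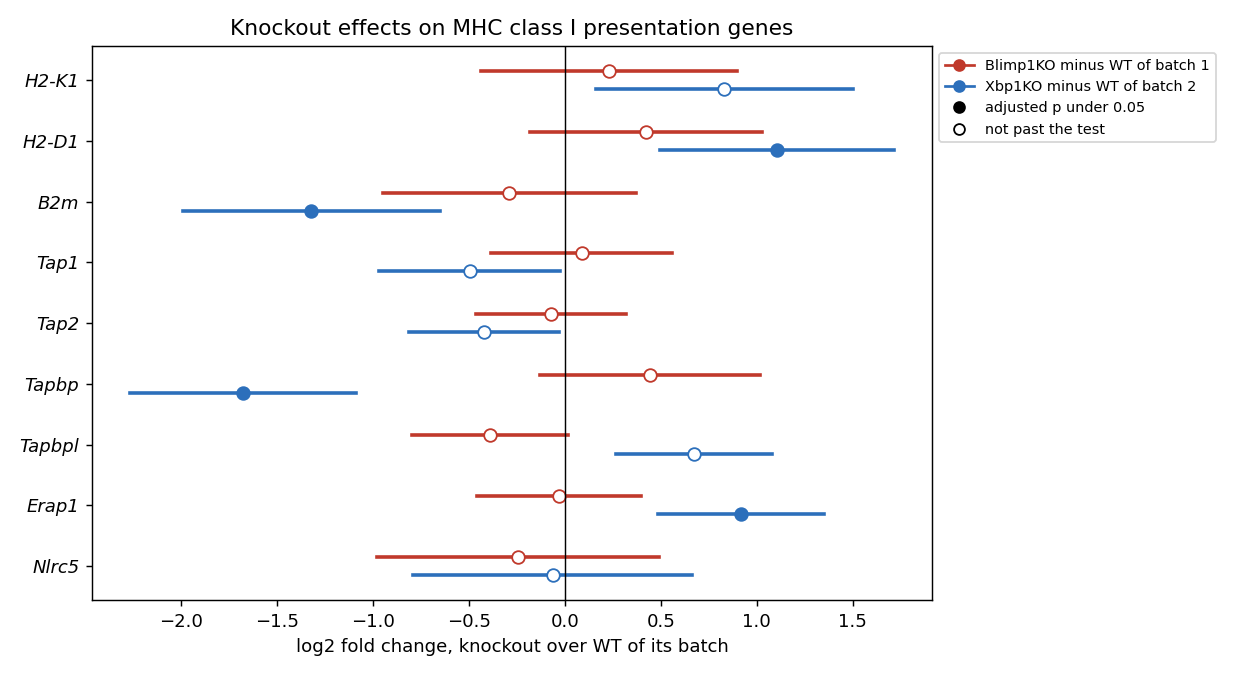
Log2 fold change (x axis) of the 9 genes (rows) in Blimp1KO over WT of batch 1 (upper of each pair) and Xbp1KO over WT of batch 2 (lower), with 95% intervals from edgeR; filled points passed an adjusted p of 0.05. Filled points are H2-D1 and Erap1 above 0 and B2m and Tapbp below 0, all in Xbp1KO, and every Blimp1KO interval includes 0.

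Ratios of raw counts within a library do not depend on how libraries are scaled. The summed counts of H2-K1 and H2-D1 per count of B2m were 2.76 and 2.59 in Xbp1KO, against 0.560 and 0.568 in WT of batch 2. In batch 1 the same ratio was 0.633 and 0.709 in Blimp1KO, against 0.455 and 0.446 in WT. Heavy chain counts thus exceeded B2m counts in Xbp1KO alone, and in each batch both knockout libraries lay above both WT libraries. Tapbp per heavy chain count was 0.0189 and 0.0198 in Xbp1KO and 0.123 and 0.113 in WT of batch 2; it was 0.115 and 0.123 in Blimp1KO and 0.105 and 0.112 in WT of batch 1.

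Counts of Tapbp per count of Tapbpl separated the groups as well. The ratio was 0.477 and 0.561 in Xbp1KO, against 2.50 and 2.77 in WT of batch 2, and 3.56 and 5.90 in Blimp1KO, against 2.68 and 2.62 in WT of batch 1. Other pairs moved less: Tap1 per Tap2 lay between 0.895 and 1.19 in all 8 libraries and H2-K1 per H2-D1 between 1.64 and 2.18. These ratios are descriptions, since 2 libraries against 2 allow no exact 2-sided permutation p under 0.333, and they are not per length.

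**Figure D3:**
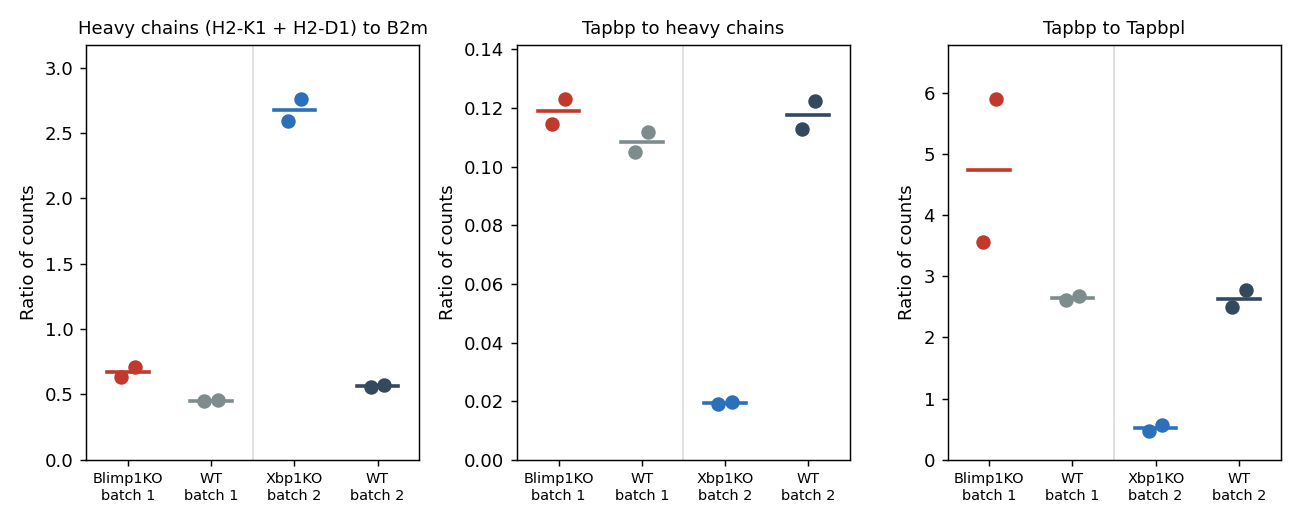
Ratios of raw counts (y axes, linear from 0) in each library (points, n = 2 per group) with group means (lines), for heavy chains to B2m (left), Tapbp to heavy chains (middle) and Tapbp to Tapbpl (right). Xbp1KO has the highest heavy chain to B2m ratio, 2.59 and 2.76, and the lowest Tapbp to Tapbpl ratio, 0.477 and 0.561.

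In Blimp1KO, 0 of the 9 genes passed edgeR's quasi-likelihood test, where 0.862% of all tested genes passed (130 of 15073; 0.577% higher and 0.285% lower). At an unadjusted p under 0.05, 2093 genes and 0 of the 9 were found, and DESeq2 called 0 of the 9 too. Estimates ranged from -0.39 to 0.44 with a median of -0.03, against -0.01 over all genes, and every 95% interval included 0. Groups did not overlap for 4 of the 9, 2 higher and 2 lower, where 43.1% of all tested genes did not overlap (20.9% higher and 22.1% lower). A count of 0 near a background of 0.862% says little about these genes.

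Replicates of Blimp1KO stood apart in several genes. Tapbp had 311 and 494 CPM in Blimp1KO and 302 and 291 CPM in WT of batch 1 (log2 fold change 0.44 ± 0.24, adjusted p = 0.5, edgeR). H2-D1 had 969 and 1419 CPM in Blimp1KO and 905 and 874 CPM in WT of batch 1 (0.42 ± 0.26, adjusted p = 0.546, edgeR). In both genes replicate 2 of Blimp1KO was the high one and replicate 1 lay just above WT.

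H2-K1 had 1746 and 2592 CPM in Blimp1KO and 1969 and 1727 CPM in WT of batch 1, with overlap between the groups (0.23 ± 0.28). B2m had 4287 and 5658.5 CPM in Blimp1KO and 6324 and 5827 CPM in WT of batch 1 (-0.29 ± 0.28). Tapbpl had 87.3 and 83.7 CPM in Blimp1KO and 113 and 111 CPM in WT of batch 1, and its estimate of -0.39 ± 0.17 had the smallest p of the 9 (adjusted p = 0.387, edgeR; 95% interval -0.79 to 0.02). Of these genes B2m and Tapbpl had both Blimp1KO libraries under both WT libraries.

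Tap1 had 103 and 141 CPM in Blimp1KO and 125 and 105 CPM in WT of batch 1 (0.09 ± 0.20), and Tap2 had 105 and 118 CPM in Blimp1KO and 126 and 109 CPM in WT (-0.07 ± 0.17). Erap1 had 94.7 and 79.6 CPM in Blimp1KO and 85.5 and 92.4 CPM in WT of batch 1 (-0.03 ± 0.18), and Nlrc5 had 16.3 and 8.40 CPM in Blimp1KO and 16.7 and 12.6 CPM in WT (-0.24 ± 0.31). Libraries of the groups overlapped for all 4 genes. With library totals in place of TMM, the median of all genes in Blimp1KO moved to 0.78, all 9 estimates were above 0 and 6 of the 9 passed.

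The Blimp1KO effect minus the Xbp1KO effect was tested in the same fit, where 1.68% of all genes passed (1.17% higher and 0.511% lower). Tapbp alone of the 9 passed, at 2.12 ± 0.35 on the log2 scale (adjusted p = 0.0391, edgeR): its estimate was 0.44 in Blimp1KO and -1.68 in Xbp1KO. The differences of Tapbpl (-1.06 ± 0.24, adjusted p = 0.0878), Erap1 (-0.95 ± 0.26, adjusted p = 0.127) and B2m (1.03 ± 0.40, adjusted p = 0.262) did not pass edgeR's test, although their 95% intervals lay off 0. Without 1 of the 4 WT libraries or of the 2 Xbp1KO libraries, Tapbp did not pass either, with a difference of 2.10 to 2.27 (adjusted p = 0.095 to 0.219, edgeR).

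WT plasma cells of the batches also differed, which touches any level set across batches. WT of batch 2 minus WT of batch 1 called 2.81% of all genes (1.96% higher and 0.843% lower) and 0 of the 9 (4087 genes at an unadjusted p under 0.05; DESeq2 called 2 of the 9). Nlrc5 stood at 37.5 and 44.5 CPM in WT of batch 2, against 16.7 and 12.6 CPM in WT of batch 1, a log2 difference of 1.49 ± 0.32 (adjusted p = 0.0604, edgeR). B2m differed by -0.80 ± 0.28 (adjusted p = 0.139, edgeR). WT libraries of the batches did not overlap for 8 of the 9 genes, 7 of them lower in batch 2, where 67.7% of all genes did not overlap (32.3% higher and 35.3% lower); Erap1 was the exception.

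Levels of different genes were compared per length, on the deposited FPKM. B2m was highest in every group, with 9444.5 ± 1650 FPKM in Blimp1KO and 16495 FPKM in both libraries of WT of batch 1, and 3595 ± 96.9 in Xbp1KO and 7123 ± 428 in WT of batch 2 (SD, n = 2). H2-K1 and H2-D1 followed and Nlrc5 was lowest in all 4 groups. In Xbp1KO the libraries of B2m overlapped those of H2-K1, at 3555 FPKM in both, whereas in the other groups B2m stood apart. Tapbp was the fourth in Blimp1KO and in WT of either batch and the seventh in Xbp1KO, at 66.0 ± 2.89 FPKM, against 209 ± 4.10 in WT of batch 2. Sorted values times gene length were nearly equal between libraries, so equal FPKM of a gene in both libraries of a group, as for B2m in WT of batch 1, mean equal rank and not an absence of spread.

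The 9 genes did not share 1 pattern. Over the 8 libraries the centred log2 CPM of Tap1 and Tap2 differed least (root mean square 0.118), then H2-K1 and H2-D1 (0.130). Tapbpl and Erap1 (0.220) and B2m and Tapbp (0.292) followed, while Nlrc5 lay 0.714 from its nearest, Erap1. Centring ran over both batches, so differences between batches enter these distances. The log2 difference of Nlrc5 between WT of the batches was 1.49, and its estimates were -0.24 in Blimp1KO and -0.06 in Xbp1KO. Among the genes closest to the mean of the 9 were L3mbtl2 (0.0435), 1110008L16Rik, Caml and Dedd (0.0567), over 8 libraries. That mean was nearly flat because higher and lower members offset each other.

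Other genes of the class I pathway were counted from lists. In Xbp1KO, 0 of the 6 genes of the immunoproteasome and its activator PA28 passed, where 7.7% of all genes did, with a median log2 fold change of 0.22 (2 of the 6 at an unadjusted p under 0.05, and 2 called by DESeq2). Psmb9, an inducible catalytic subunit that lies head to head with Tap1 on chromosome 17 (34182030 to 34187330), had 39.6 and 38.8 CPM in Xbp1KO and 72.6 and 79.0 CPM in WT of batch 2, an estimate of -0.95 ± 0.27 (adjusted p = 0.088, edgeR). Psme3, a nuclear proteasome activator, had an estimate of 0.50 ± 0.15 (adjusted p = 0.0931, edgeR). Of the 3 constitutive catalytic subunits 0 passed, with 0 at an unadjusted p under 0.05 and 0 called by DESeq2. Psmb7 stood at 0.31 ± 0.20 and Psmb5 at -0.11 ± 0.28. Counts of Psmb9 per count of Psmb6, the constitutive subunit it replaces, were 0.903 and 1.01 in Xbp1KO, against 1.65 and 1.99 in WT of batch 2.

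Of the 6 endoplasmic reticulum chaperones that serve the loading complex, Uggt1 alone passed in Xbp1KO, and of the 9 other peptidases Dpp3 alone. With 7.7% of all genes passing in Xbp1KO, counts of 1 in lists of this size say little about either list. Uggt1, a glucosyltransferase that marks misfolded glycoproteins for another round of folding, had 82.2 and 70.1 CPM in Xbp1KO and 160 and 137 CPM in WT of batch 2, and fell by 0.96 ± 0.21 on the log2 scale (adjusted p = 0.0374, edgeR). Dpp3 had 36.0 and 34.4 CPM in Xbp1KO and 68.7 and 65.9 CPM in WT of batch 2, and fell by 0.94 ± 0.18 (adjusted p = 0.0248, edgeR). With library totals in place of TMM these estimates were 0.19 for Uggt1 and 0.22 for Dpp3.

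Nonclassical heavy chains, relatives of H2-K1 and H2-D1 with more specialised ligands, were both higher and lower in Xbp1KO. Of the 18 tested of 19 listed genes, 2 rose, 2 fell and 14 did not pass, with a median of 0.40; over all genes 2.63% rose and 5.06% fell. H2-T23, which encodes Qa-1, a ligand of receptors on NK cells, had 89.8 and 85.3 CPM in Xbp1KO and 265 and 248.5 CPM in WT of batch 2, and fell by 1.55 ± 0.24 (adjusted p = 0.0138, edgeR). H2-T24 had 23.1 and 24.7 CPM in Xbp1KO and 74.4 and 73.5 CPM in WT of batch 2, and fell by 1.63 ± 0.21 (adjusted p = 0.00789, edgeR). In both genes the Xbp1KO libraries lay at about the same low level.

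H2-Q4 had 132 and 122 CPM in Xbp1KO and 68.4 and 69.5 CPM in WT of batch 2, and rose by 0.88 ± 0.16 (adjusted p = 0.0213, edgeR). H2-Q6 had 90.7 and 90.3 CPM in Xbp1KO and 47.5 and 59.4 CPM in WT of batch 2, and rose by 0.76 ± 0.18 (adjusted p = 0.0483, edgeR). These genes are near-identical to others of the Q region, so reads may be split among them. With library totals in place of TMM, H2-T23 and H2-T24 kept estimates below 0 (-0.39 and -0.47) without passing.

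Of the 20 factors of the class I promoter complex and its inducers, Irf8 alone passed in Xbp1KO, a share under the 7.7% of all genes. This interferon regulatory factor of B cells and myeloid cells had 22.4 and 26.2 CPM in Xbp1KO and 46.2 and 41.8 CPM in WT of batch 2, and fell by 0.86 ± 0.20 (adjusted p = 0.0483, edgeR; 0.31 with library totals). Of the 9 interferon receptor and kinase genes 0 passed (2 at an unadjusted p under 0.05, and 2 called by DESeq2). Ifnar2, a chain of the type I interferon receptor, had an estimate of 0.70 ± 0.18 (adjusted p = 0.0592) and Socs1, an inhibitor of interferon signalling, of -1.23 ± 0.41 (adjusted p = 0.124, edgeR). Socs1 had 1.41 and 1.73 CPM in Xbp1KO and 4.97 and 2.36 CPM in WT of batch 2, and its estimate was -0.60 without WT replicate 3 and -0.02 with library totals. Without any 1 of the 4 WT libraries or the 2 Xbp1KO libraries, Uggt1, Dpp3, H2-Q4, H2-Q6 and Irf8 did not pass, and H2-T23 did not pass without any 1 library of batch 2. H2-T24 did not pass without WT replicate 3 or either Xbp1KO library.

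**Figure D4:**
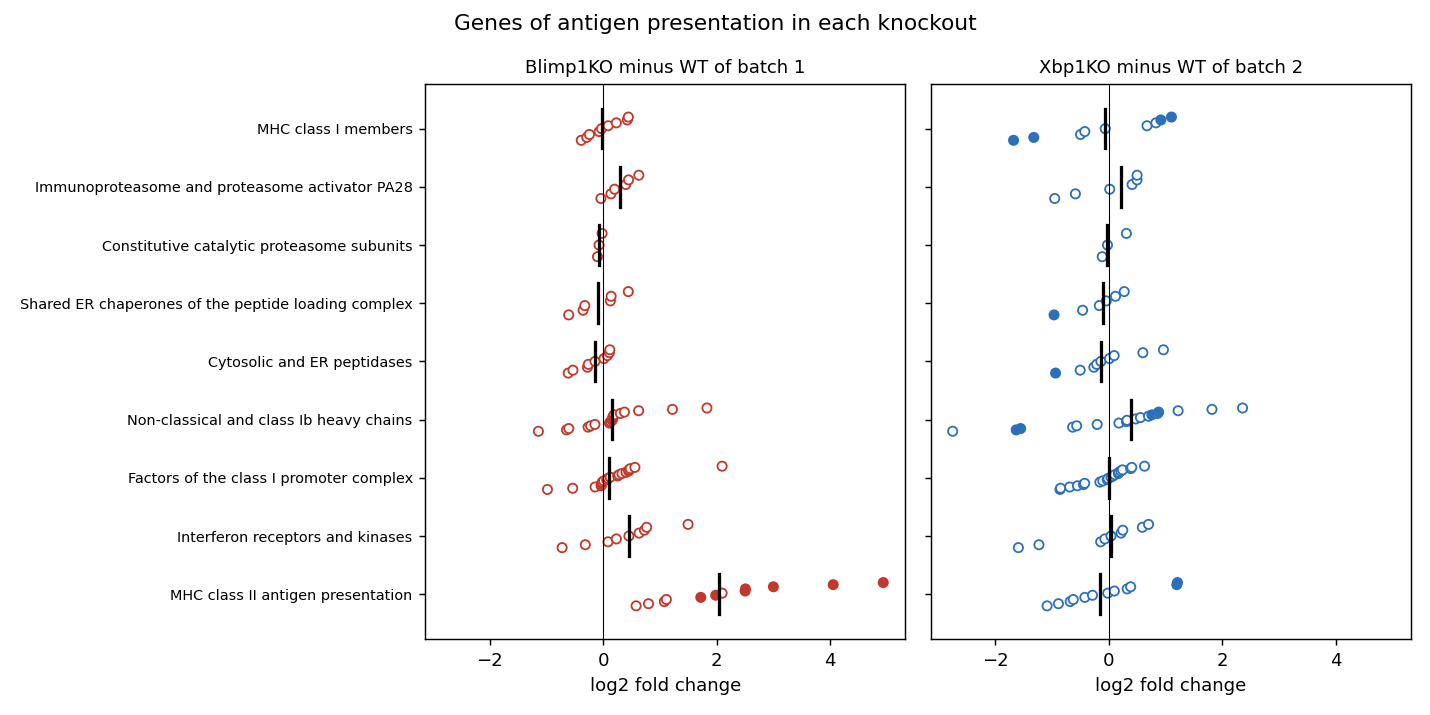
Log2 fold change (x axes) of each tested gene (points, filled where the adjusted p was under 0.05) by list (rows) in Blimp1KO (left) and Xbp1KO (right), each over WT of its batch; black lines are list medians. In Blimp1KO the filled points all lie in the class II list, 7 of 12 genes with a median of 2.04, while in Xbp1KO filled points of the class I lists lie on both sides of 0.

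In Blimp1KO, 0 genes of any of these class I lists passed, where 0.862% of all genes did. DESeq2 called 1 chaperone, 1 nonclassical heavy chain, 1 factor of the promoter complex and 3 genes of the interferon list there. The activator subunits Psme1 and Psme2 had estimates of 0.63 ± 0.24 and 0.45 ± 0.23, Psmb7 and Psmb5 of -0.07 and -0.10, and the glucosidase subunit Ganab and Uggt1 of -0.61 ± 0.20 and 0.44 ± 0.20. Dpp3 and the peptidase Lap3 stood at -0.62 ± 0.17 and -0.53 ± 0.19, and H2-Q4 at 0.37 ± 0.16. H2-T24 had 33.5 and 21.97 CPM in Blimp1KO and 58.6 and 63.9 CPM in WT of batch 1, an estimate of -1.14 ± 0.21 (adjusted p = 0.0662, edgeR).

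Among regulators in Blimp1KO, Xbp1 stood at -0.98 ± 0.25 (adjusted p = 0.141), Irf9 at 0.45 ± 0.14 (adjusted p = 0.201), Ifnar2 at -0.72 ± 0.18 (adjusted p = 0.128) and Socs1 at 1.50 ± 0.41 (adjusted p = 0.167, edgeR). Ifnar2 had 47.8 and 62.1 CPM in Blimp1KO against 88.0 and 93.7 CPM in WT of batch 1. It had 85.75 and 84.0 CPM in Xbp1KO, against 55.1 and 49.3 CPM in WT of batch 2. The Blimp1KO effect minus the Xbp1KO effect of Ifnar2 was -1.43 ± 0.25 (adjusted p = 0.0447, edgeR). It was the 1 gene of the class I lists outside the 9 whose difference passed, and it did not pass when any 1 library other than replicate 2 of Blimp1KO was left out (-1.50 to -1.18).

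The class II pathway, which presents peptides from endosomes to CD4 T cells, gave another picture. Of its 12 listed genes, 7 passed as higher in Blimp1KO and 0 as lower, where 0.577% of all genes passed as higher and 0.285% as lower. The median log2 fold change of the 12 was 2.04, against -0.03 for the 9 class I genes. These calls depend on which libraries enter the fit. They were lost without any 1 of the 4 WT libraries, of either batch, and mostly kept without 1 knockout library. WT of batch 2 is not in this contrast and acts on it only through the shared spread, filter and scaling. Calls over all genes also varied with the library left out. With the 4 libraries of batch 1 alone, 0 of the 12 passed, and 20 of all genes did. Beside the class II genes, estimates of B cell markers were above 0 in Blimp1KO for 8 of 10 (median 1.22, 1 passed). Those of dendritic cell markers were above 0 for 9 of 11 (median 1.06, 0 passed). The part of such cells in the class II levels was not tested. In Xbp1KO 2 of the 12 rose, H2-Eb2 (1.21 ± 0.19, adjusted p = 0.014) and H2-DMa (1.20 ± 0.21, adjusted p = 0.02, edgeR), with a median of -0.15, where 2.63% of all genes rose; 0 of the 12 passed without any 1 library of batch 2. The 2 lists were not tested against each other.

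Markers of other cells were read beside these results. All plasma cell markers were detected in all groups, with summed levels of 58943 to 72663 CPM in Blimp1KO and 110910 to 119430 CPM in WT of batch 1, and of 32542 to 40577 CPM in Xbp1KO and 50557 to 68243 CPM in WT of batch 2. These sums are mostly Jchain, the joining chain of secreted antibody, which had 36317 and 29069 CPM in Xbp1KO and 62641 and 45493 CPM in WT of batch 2. Of the 10 markers 3 passed as lower in Xbp1KO and 0 as higher: Fkbp11 fell by 4.06 ± 0.34, Mzb1 by 1.96 ± 0.29 and Derl3 by 1.45 ± 0.25 on the log2 scale (adjusted p = 0.00226, 0.012 and 0.0204, edgeR). Sdc1, which encodes CD138, stood at 0.74 ± 0.22 (adjusted p = 0.098, edgeR). In Blimp1KO 0 of the 10 passed, with 3 at an unadjusted p under 0.05 and 3 called by DESeq2, and all 10 estimates were below 0 with a median of -0.55. B cell markers summed to 1302 to 1794 CPM in Blimp1KO and 941 to 968 CPM in WT of batch 1, and to 915 to 988 CPM in Xbp1KO and 696 to 819 CPM in WT of batch 2. Of the 10 B cell markers 1 passed in each knockout, higher, and in Xbp1KO 8 of the 10 estimates were above 0 (median 0.37). Dendritic cell markers summed to 89.1 to 99.4 CPM in Xbp1KO and 65.5 to 73.0 CPM in WT of batch 2. In Xbp1KO 1 of the 11 passed, higher, and 9 of the 11 estimates were above 0 (median 0.73). They summed to 111 to 150 CPM in Blimp1KO and 116 to 141 CPM in WT of batch 1. There 0 of 11 passed (3 at an unadjusted p under 0.05, and 1 called by DESeq2). Bst2, which plasma cells also express, made up much of that sum in batch 1, with 57.9 and 107 CPM in Blimp1KO and 91.1 and 118 CPM in WT. Itgax, the dendritic cell integrin CD11c, had 18.3 and 15.9 CPM in Blimp1KO and 5.40 and 2.21 CPM in WT of batch 1 (2.17 ± 1.12, adjusted p = 0.467, edgeR).

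Neutrophil and monocyte markers varied most between replicates. They summed to 44.1 and 1309 CPM in the Xbp1KO libraries and to 14.1 and 549 CPM in the WT libraries of batch 2. In Xbp1KO 1 of the 12 passed, higher, and 11 of the 12 estimates were above 0, with a median of 1.36. Itgam alone of the 12 had Xbp1KO libraries that did not overlap those of WT, at 41.7 and 40.8 CPM against 7.66 and 14.8 CPM. S100a8, a neutrophil marker, was low in replicate 1 of Xbp1KO (0.337 CPM) and replicate 3 of WT (0.461 CPM), which bear the same number in their deposited names, and high in replicate 2 of Xbp1KO (192 CPM) and replicate 4 of WT (102 CPM). In batch 1 the 12 markers summed to 300 to 529 CPM in Blimp1KO and 358 to 442 CPM in WT, with 0 of 12 passing. Estimates were above 0 for 3 of the 12 there. Itgam had 58.7 and 44.6 CPM in Blimp1KO and 12.3 and 15.5 CPM in WT of batch 1. T and NK cell markers summed to at most 28.4 CPM in any library, with Gzmb at 0 in Xbp1KO. The part of such cells in the levels of the 9 genes was not tested.

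**Figure D5:**
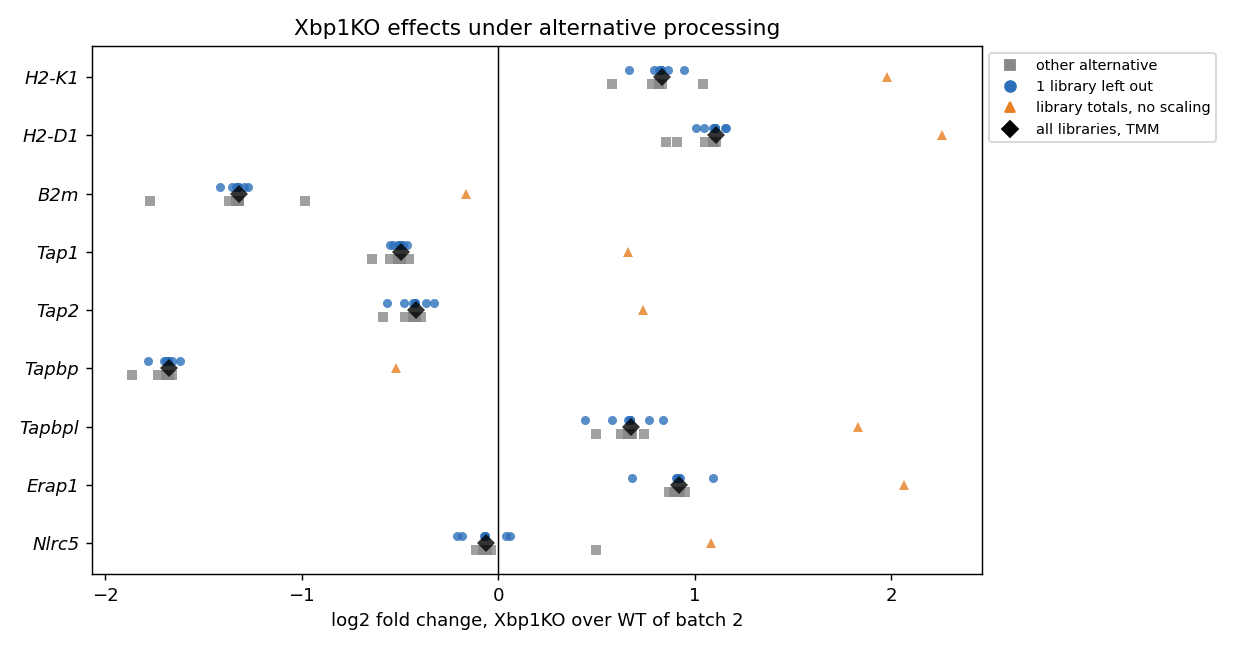
Log2 fold change in Xbp1KO over WT of batch 2 (x axis) of the 9 genes (rows) with all libraries and TMM (diamonds), with 1 library left out (circles), with library totals and no scaling (triangles) and under the other alternatives (squares). Apart from the triangles, the values of Tapbp lie between -1.86 and -1.62, and triangles shift to the right for every gene.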

How the data were processed

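RNA was measured by RNA-seq in 8 libraries of sorted mouse plasma cells, 2 per group. Subread, featureCounts and limma on GRCm38 (mm10) are named in the submitters' processing notes; versions, the strand setting and the step each tool served are not given in the sources used here. The deposited series table holds raw counts per Entrez gene, per the file headers, and a deposited file for each library holds log2 FPKM of 13945 genes, per the file headers. Symbols came from the deposited files for 13860 of 27179 identifiers and from RefSeq for 11720, while 1599 had none.

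Counts were analysed in R 4.3.3 with edgeR 4.0.16: filterByExpr with a minimum count of 10, TMM scaling (factors 0.564 to 2.11), and a quasi-likelihood fit of 4 group means to 8 libraries with 4 residual and 3.06 prior degrees of freedom. P-values were adjusted by Benjamini-Hochberg over 15073 genes, and calls were made at an adjusted p below 0.05. The SE is the log2 fold change over the square root of F. Alternatives used limma 3.58.1, DESeq2 1.42.0, other scalings and filters, and left-out libraries; library totals without scaling, a block by file number in batch 2 and the counts of class II calls under each alternative were added after seeing the data. The fit was also run on data simulated with its own estimated spread, so that run cannot show whether the spread is right. From each list, all called genes were named, up to 6, or otherwise the 2 with the smallest p. The 5 genes closest to the mean of the 9 were also chosen by rule, and 1 of them is not reported here. The 9 genes and the lists were chosen with earlier results of these data known.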

Additional observations from a re-analysis of the deposited data

Results flagged for a closer look

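The effect of the knockouts on Tapbp differed: the Blimp1KO effect minus the Xbp1KO effect was 2.12 on the log2 scale (adjusted p = 0.0391, edgeR), with both Blimp1KO libraries above WT of batch 1 and both Xbp1KO libraries under WT of batch 2. For Ifnar2 the difference ran the other way, at -1.43 (adjusted p = 0.0447, edgeR), with both Blimp1KO libraries under and both Xbp1KO libraries above WT of their batch. Each knockout lies in its own batch, so a batch effect on a knockout cannot be told apart from the knockout beyond what WT of that batch shows.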

How the results depend on the processing

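In Xbp1KO, H2-K1, H2-D1, B2m, Tapbp, Tapbpl and Erap1 kept the sign of their estimate under every alternative run. Their calls were less steady: Tapbp and Erap1 passed in most alternatives, while H2-D1 and B2m did not pass in most of them. DESeq2 called 856 genes in Blimp1KO, 2220 in Xbp1KO, 1180 in the difference of effects and 2005 between WT batches, with 4 of the 9 in the difference and 2 between WT batches, and 11 of the 12 class II genes in Blimp1KO and 4 in Xbp1KO. Without the filter on low counts 517 genes were called in Blimp1KO, 763 in the difference and 1662 between WT batches, and 2 of the 9 in Xbp1KO and 1 between WT batches. limma-voom called 83 genes in Blimp1KO and 204 between WT batches, limma on FPKM called 2 of the 9 in the difference, and TMM without immunoglobulin genes called 1 of the 9 between WT batches. The 4 libraries of batch 1 alone gave 20 genes and 0 class II genes in Blimp1KO, with Erap1 at 0.014. All 4 WT libraries as 1 group gave 269 genes in Blimp1KO, with B2m at 0.055, Tap2 at 0.079, Psmb7 at 0.45 and Psmb5 at 0.27, and in Xbp1KO 1 class II gene, Nlrc5 at 0.50 and Psmb7 at -0.51.

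With library totals, added after seeing the data, 5895 genes and 6 of the 9 were called in Blimp1KO, 9474 and 7 in Xbp1KO, and 2836 and 1 between WT batches, with 11 class II genes in Blimp1KO and 6 in Xbp1KO. Signs then changed in Blimp1KO for B2m (0.50), Tap2 (0.72), Tapbpl (0.41), Erap1 (0.77), Nlrc5 (0.58), Psmb7 (0.71), Psmb5 (0.67), Ganab (0.19), Dpp3 (0.17), Lap3 (0.25) and Ifnar2 (0.059). They changed in Xbp1KO for Tap1 (0.66), Tap2 (0.74), Nlrc5 (1.08), Psmb9 (0.20), Psmb5 (1.04), Uggt1 (0.19), Dpp3 (0.22) and Irf8 (0.31), and in the difference for Tap2 (-0.013). The median of all genes moved with the scaling, to 0.78 in Blimp1KO and 1.24 in Xbp1KO.

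With 1 library left out, 0 to 688 genes and 0 of the 9 were called in Blimp1KO, 225 to 2123 genes and 0 to 5 of the 9 in Xbp1KO, 3 to 598 genes and 0 to 1 of the 9 in the difference, and 14 to 2963 genes and 0 to 1 of the 9 between WT batches. Of the class II genes 0 to 8 were called in Blimp1KO and 0 to 2 in Xbp1KO. A group then holds 1 library, assumed to vary like the others. Signs changed in Blimp1KO for H2-K1 (-0.078 to 0.54), Tap1 (-0.16 to 0.35), Tap2 (-0.17 to 0.058), Erap1 (-0.11 to 0.094), Nlrc5 (-0.75 to 0.16), Psmb7 (-0.34 to 0.20) and Psmb5 (-0.64 to 0.34), and for Nlrc5 in Xbp1KO (-0.21 to 0.060) and in the difference (-0.68 to 0.23). Where not given by the alternative itself, the cause was not tested.

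Numbers 1 and 2 are shared by Blimp1KO and WT of batch 1, and no label says that they pair libraries. Deviations of same-numbered libraries correlated at 0.218 across 15073 genes. A fit with the replicate number as a block called 475 genes and 0 of the 9, with Erap1 at 0.0091 and no other member changing sign. In batch 2 the labels give the groups different numbers, but the names of the per-library files give both a 1 and a 2. By those, deviations of same-numbered libraries correlated at 0.513. A fit with that number as a block, added after seeing the data, called 2047 genes and 7 of the 9 in Xbp1KO: the 4 called without it, and H2-K1, Tap1 and Tapbpl (adjusted p = 0.0386, 0.043 and 0.0285, edgeR). Each block fit used only the 4 libraries of its batch and left fewer residual degrees of freedom than the main fit. With 2 pairs per batch, whether the numbers pair the samples was not settled.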
